A study of Homo sapiens with 4 samples.

Results

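The genes described here encode SR proteins, heterogeneous nuclear ribonucleoproteins (hnRNPs) and the SF3 and U2AF splicing factors. They were taken by symbol, as SRSF followed by digits, any symbol that begins with HNRNP, SF3A or SF3B followed by digits, and U2AF1 or U2AF2 with their relatives, and symbols ending in P and digits, which mark pseudogene copies, were left out. This gave 45 of the 16490 genes with values, 11 SR protein genes, 22 hnRNP genes and 12 SF3 and U2AF genes, held in 106 RefSeq transcript rows.

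MV4-11 is a human acute myeloid leukaemia (AML) cell line. Its RNA was sequenced in 2 libraries of cells that carried sh-CEBPG#3, a short hairpin RNA against CEBPG (CCAAT/enhancer-binding protein gamma), and in 2 libraries of cells that carried the control hairpin sh-NC. The paper names a pLKO.1-puro lentivirus for the CEBPG hairpins and puromycin for the selection of infected cells. Its methods do not name the vector of the control hairpin. A single CEBPG hairpin stands for the knockdown in these libraries. Separate infections for the libraries of a group are not stated in the sources used here, so p-values measure the spread between these libraries, which may be technical.

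Before it leaves the nucleus, a transcript is bound by several kinds of factor that decide where introns are cut. SR proteins bind exonic enhancers through RNA recognition motifs and recruit the splicing machinery through a domain rich in arginine and serine. The hnRNPs coat the nascent RNA, and several of them silence exons by competing with SR proteins. U2AF reads the polypyrimidine tract and the AG at the end of the intron, and the SF3A and SF3B complexes, parts of the U2 small nuclear ribonucleoprotein, hold the branch point. In myeloid neoplasms SRSF2, SF3B1 and U2AF1 are recurrently mutated, and many SR and hnRNP genes limit their own level through isoforms that are not translated.

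The deposited values are FPKM, fragments per kilobase of transcript scaled to the mapped reads, so levels are per length and can be compared between genes. The rows of a gene were summed in each library and tested as log2(FPKM + 1) with limma over 12142 genes (mean over the libraries 0.5 FPKM or more), with Benjamini-Hochberg adjustment over all of them. A gene is called below where its adjusted p was under 0.05. Log2 fold changes are sh-CEBPG#3 minus sh-NC on that scale, which understates the change of low genes. FPKM values carry no read counts, so the depth is unknown. For a single gene, the smallest two-sided p of an exact permutation test on 2 against 2 libraries is 0.333.

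The targeted gene came first. CEBPG was at 56.8% of its control level (log2 fold change -0.78, SE 0.09, adjusted p = 8.88e-05 by limma with Benjamini-Hochberg adjustment), and its values were 30.4 and 33.6 FPKM against 19.2 and 17.1 FPKM. Library FPKM totals ran from 364353 to 389766, and Pearson's r across the genes tested was at least 0.993 within a group and at most 0.964 across groups. All 15 myelomonocytic and AML markers had values, of which 9 rose and 2 fell. Their summed level went from 1370 and 1513 FPKM to 4362 and 4172 FPKM, most of it lysozyme (LYZ, 567 and 610 FPKM against 3126 and 2982 FPKM). Of 13 lymphoid, erythroid and epithelial markers 4 had values, with sums of 13.1 and 13.9 FPKM against 17.0 and 16.3 FPKM, while CD3E, CD3D, MS4A1, HBB and EPCAM were among the 9 not analysed here. Keratin 8 (KRT8) was the one of these that rose, from 2.29 and 2.35 FPKM to 6.26 and 6.19 FPKM.

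Splicing factor mRNA was lower upon CEBPG knockdown. Of the 45 genes, 22 fell and 2 rose, HNRNPH2 and SF3B4, while 21 were not called. Among all genes tested 23.8% fell and 18.5% rose. The changes were small, with a median log2 fold change of -0.24 against -0.04 over all genes tested, and they ran from -0.86 to 0.34. None passed an unadjusted p under 0.05 together with an absolute log2 fold change above 1, thresholds the study used, which 3.41% of all genes passed. The study set them on DESeq2 results and they were set here on the limma fit, so the counts cannot be compared. Summed over the 45 genes, splicing factor mRNA came to 4265 and 4616 FPKM with sh-NC and to 3884 and 3775 FPKM with sh-CEBPG#3. That was 1.17% and 1.19% of all FPKM in the control libraries and 0.997% and 1.00% in the knockdown libraries.

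These are abundant mRNAs, and 40 of the 45 had a mean of at least 20 FPKM. Of these 40, 21 fell and 2 rose, where 26.9% of the 2828 genes at that level fell. The libraries of the groups did not overlap for 36 of the 45 genes, 31 lower and 5 higher, a pattern that 71.7% of all genes tested showed in one direction or the other. The counts depended on single libraries. Without sh-NC replicate 1 there were more calls among the 45 genes, and without sh-NC replicate 2 fewer. Median log2 fold changes of the 45 genes were -0.27 and -0.19 in these fits, against -0.07 and -0.008 over all genes tested. Without sh-CEBPG#3 replicate 1 there were 12 calls, all lower, where 33.4% of all genes tested were called and 20.7% fell. Without sh-CEBPG#3 replicate 2 there were also 12 calls, 11 of them lower, where 31.9% of all genes were called and 16.1% fell. When each gene was represented by its most abundant row, 14 of the 45 fell and 1 rose, where 12.8% of all genes fell. In bulk RNA a lower value per cell and fewer cells that express the gene cannot be told apart.

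**Figure D1:**
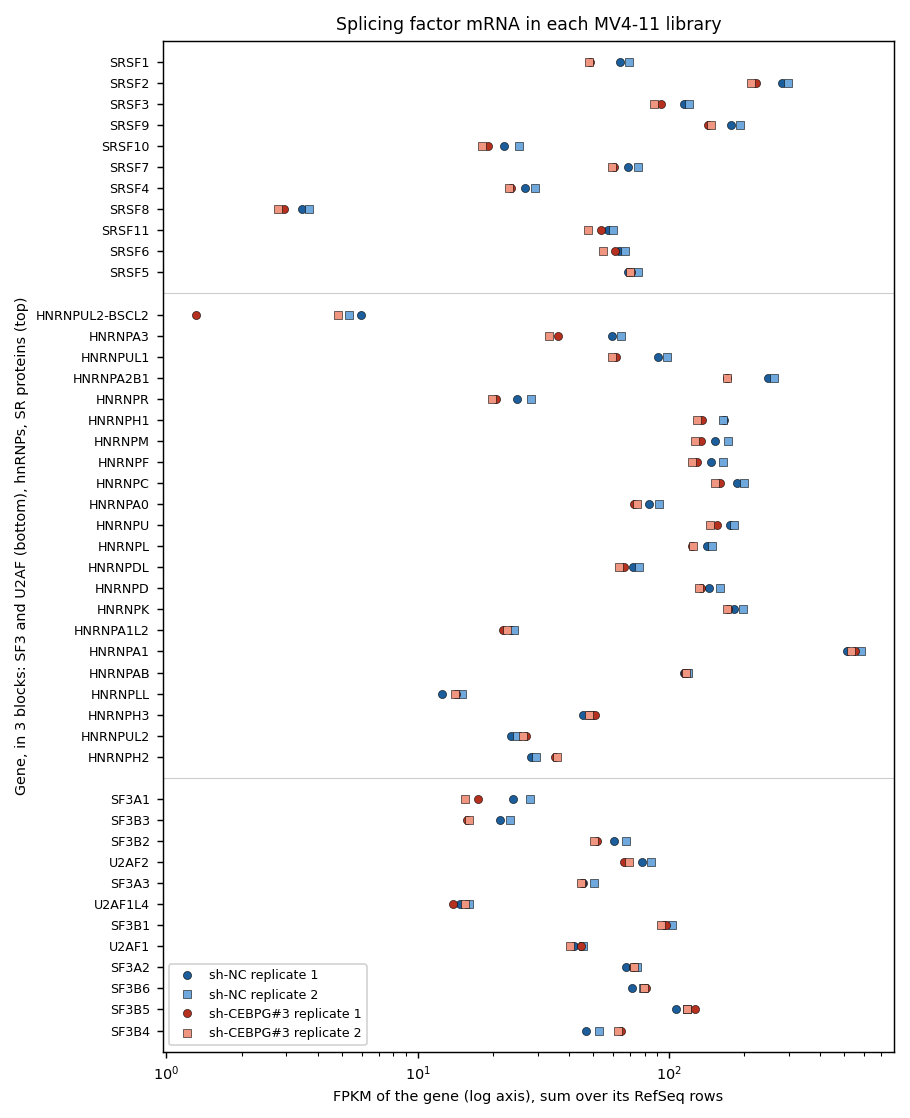
FPKM of each of the 45 genes in each MV4-11 library on a log axis, summed over RefSeq rows, with sh-NC libraries in blue and sh-CEBPG#3 libraries in red. The red points lie to the left of the blue ones for 10 of the 11 SR protein genes without overlap, whereas SRSF5, HNRNPA1, HNRNPAB and SF3B1 overlap. The groups did not overlap, in one direction or the other, for 71.7% of all genes tested.

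All 11 SR protein genes had a negative log2 fold change, and 7 of them fell. Among all 12142 genes tested 6660 had a negative log2 fold change and 23.8% fell. The median over the SR class was -0.26, and its 7 falls left 73.0% to 83.4% of the control level. SRSF1, which binds purine-rich exonic enhancers and acts as an oncoprotein when overexpressed, had 63.8 and 69.1 FPKM with sh-NC and 48.7 and 48.3 FPKM with sh-CEBPG#3. The groups did not overlap, and the log2 fold change was -0.45 (SE 0.07, adjusted p = 0.000955 by limma with Benjamini-Hochberg adjustment). On GRCh38 SRSF1 lies on the minus strand of chromosome 17 from 57989038 to 58007246.

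SRSF2 (also SC35), the most abundant SR protein mRNA of these cells, had 282 and 298 FPKM with sh-NC and 222 and 212 FPKM with sh-CEBPG#3, a log2 fold change of -0.42 (SE 0.07). SRSF3, the smallest SR protein and an adaptor in mRNA export, went from 115 and 120 FPKM to 92.9 and 87.3 FPKM (log2 fold change -0.38, SE 0.07). SRSF9 fell from 177 and 191 FPKM to 143 and 147 FPKM (-0.34 on the log2 scale, SE 0.07). None of these groups overlapped. SRSF10, which represses splicing in its dephosphorylated state, had 22.0 and 25.3 FPKM against 19.1 and 18.1 FPKM, and its log2 fold change was -0.33 (SE 0.09). Its most abundant row alone stood at -0.044 and was not called. SRSF7, which like SRSF3 shuttles to the cytoplasm, and SRSF4 fell by 0.26 and 0.25 on the log2 scale.

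The remaining 4 SR protein genes were not called. SRSF11 and SRSF8, a paralogue of SRSF2, missed the threshold with intervals below 0 (95% confidence intervals of the log2 fold change -0.39 to -0.04 and -0.47 to -0.01). The interval of SRSF6 was -0.35 to 0.01. SRSF5 had 68.9 and 75.3 FPKM with sh-NC and 70.6 and 70.2 FPKM with sh-CEBPG#3, within the spread of the controls, and its interval of -0.20 to 0.13 leaves out falls of the size seen for SRSF1. The libraries thus went from 1.08 and 1.09 SRSF5 per SRSF1 to 1.45 and 1.46, a pair chosen after its values were seen. Without sh-NC replicate 2, without sh-CEBPG#3 replicate 1 or without sh-CEBPG#3 replicate 2, fewer SR protein genes fell, as did fewer of all genes tested. SRSF1, SRSF2 and SRSF3 were called each time, and SRSF9 was lost without sh-CEBPG#3 replicate 1.

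Of the 22 hnRNP genes 11 fell, 1 rose and 10 were not called, with a median log2 fold change of -0.23. Among all genes tested 23.8% fell and 18.5% rose. The 3 largest of the 11 falls were in HNRNPA3, HNRNPUL1 and HNRNPA2B1. HNRNPA3, an hnRNP of the A/B family on chromosome 2 (177212794 to 177223959, plus strand), had 59.5 and 64.2 FPKM with sh-NC and 36.4 and 33.5 FPKM with sh-CEBPG#3. That left 56.4% of the control level, with no overlap (log2 fold change -0.81, SE 0.08, adjusted p = 3.44e-05 by limma with Benjamini-Hochberg adjustment). HNRNPA2B1 (chromosome 7, 26189927 to 26200746, minus strand), an abundant A/B family member that also sorts microRNAs, went from 249 and 262 FPKM to 170 and 170 FPKM. Its log2 fold change was -0.59 (SE 0.07, adjusted p = 0.000106 by limma with Benjamini-Hochberg adjustment).

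HNRNPA1, the best known exon silencer of the family, was not called. It was the most abundant of the 45 genes, at 514 and 583 FPKM with sh-NC and 550 and 531 FPKM with sh-CEBPG#3, so both knockdown libraries lay between the controls (95% confidence interval of the log2 fold change -0.19 to 0.16). In each control library there were 8.63 and 9.07 HNRNPA1 per HNRNPA3, and in each knockdown library 15.1 and 15.9. Against HNRNPA2B1 the ratio moved from 2.06 and 2.22 to 3.24 and 3.13. Both pairs were chosen after their values were seen. HNRNPA1 has near-identical copies, among them HNRNPA1L2 (23.6 and 24.1 FPKM against 21.9 and 22.8 FPKM, not called) and the pseudogene HNRNPA1P10 (64.6 and 58.6 FPKM against 54.1 and 63.2 FPKM), so how reads were split among the copies is uncertain.

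HNRNPUL1 and HNRNPUL2 are paralogues related to HNRNPU that take part in the response to DNA breaks. HNRNPUL1 (chromosome 19, 41262557 to 41307787, plus strand) fell from 90.7 and 98.1 FPKM to 61.7 and 59.3 FPKM, a log2 fold change of -0.63 (SE 0.07, adjusted p = 0.000109 by limma with Benjamini-Hochberg adjustment). HNRNPUL2 had 23.6 and 24.9 FPKM with sh-NC and 26.9 and 26.3 FPKM with sh-CEBPG#3 and was not called (95% confidence interval -0.04 to 0.30). The ratio of the first to the second, another pair chosen after its values were seen, was 3.84 and 3.94 in the controls and 2.29 and 2.26 upon knockdown. The readthrough HNRNPUL2-BSCL2, a non-coding RNA that shares exons with HNRNPUL2, had 5.96 and 5.31 FPKM against 1.31 and 4.81 FPKM. Its log2 fold change of -0.86 had the widest interval of all (-1.56 to -0.16, adjusted p = 0.0506 by limma with Benjamini-Hochberg adjustment). Without sh-CEBPG#3 replicate 2, which leaves the library at 1.31 FPKM, it was -1.52.

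HNRNPH1 and HNRNPH2 encode nearly the same protein and bind runs of G. Their mRNAs moved in opposite directions. HNRNPH1 fell from 165 and 164 FPKM to 135 and 130 FPKM (log2 fold change -0.31, SE 0.07), and HNRNPH2, on the X chromosome, rose from 28.3 and 29.7 FPKM to 35.3 and 35.9 FPKM (log2 fold change 0.29, SE 0.07, adjusted p = 0.0108 by limma with Benjamini-Hochberg adjustment). The ratio of HNRNPH1 to HNRNPH2, chosen after its values were seen, went from 5.84 and 5.52 to 3.84 and 3.62. The call on HNRNPH1 was lost without sh-CEBPG#3 replicate 2 (-0.28, adjusted p = 0.098 by limma with Benjamini-Hochberg adjustment), and that on HNRNPH2 without either sh-CEBPG#3 library (0.30 and 0.27) and on its most abundant row alone (0.26). HNRNPH3, a shorter relative, was not called.

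HNRNPR fell from 24.9 and 28.4 FPKM to 20.6 and 19.8 FPKM (log2 fold change -0.38, SE 0.09). Smaller falls, of 0.22 to 0.30 on the log2 scale, were seen for HNRNPM, HNRNPF, HNRNPC, HNRNPA0, HNRNPU and HNRNPL. On its most abundant row alone HNRNPF stood at 0.10 and was not called. HNRNPC covers U-rich tracts and HNRNPL binds CA repeats. HNRNPU, also called scaffold attachment factor A, had 175 and 182 FPKM with sh-NC and 155 and 146 FPKM with sh-CEBPG#3. HNRNPK, which binds C-rich RNA, HNRNPD, which marks AU-rich mRNAs for decay, and HNRNPDL had 95% confidence intervals that ended at 0.01, -0.02 and -0.03 and were not called. HNRNPAB, of the A/B family, and HNRNPLL, a regulator of CD45 splicing, overlapped between the groups. Without sh-CEBPG#3 replicate 1 or without sh-CEBPG#3 replicate 2 fewer hnRNP genes fell, a share nearer to that of all genes tested in the same fits. HNRNPA3, HNRNPUL1, HNRNPA2B1 and HNRNPR were called each time.

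**Figure D2:**
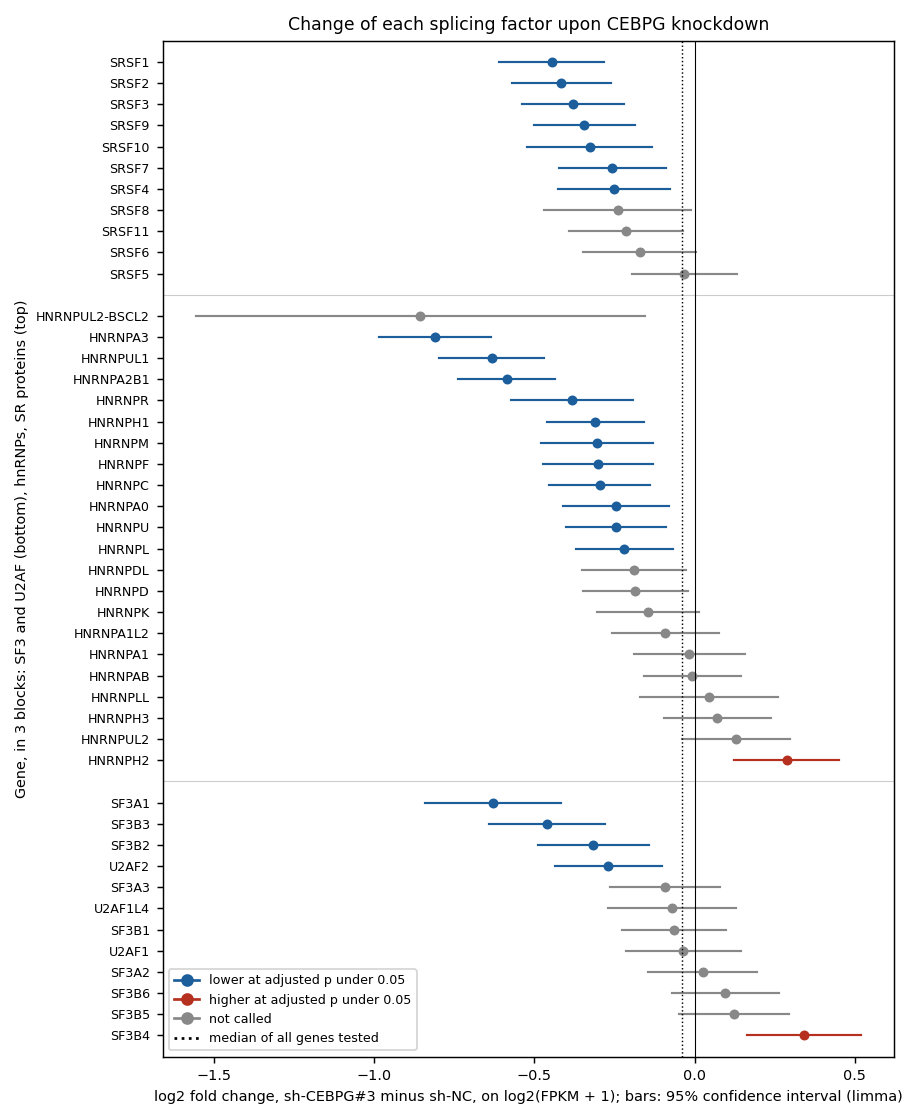
Log2 fold change of each gene (points) with its 95% confidence interval from limma (bars), in blocks of SR protein, hnRNP, and SF3 and U2AF genes; blue marks genes that fell, red genes that rose and grey those not called, and the dotted line is the median of all genes tested (-0.04). The intervals of HNRNPA3, HNRNPUL1, HNRNPA2B1 and SF3A1 lie farthest to the left among those called, and the red points are HNRNPH2 (0.29) and SF3B4 (0.34).

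The SF3 and U2AF genes were split. Of the 12 genes 4 fell, 1 rose and 7 were not called, with a median log2 fold change of -0.07. Over all genes tested 42.2% were called and the median was -0.04, so the class as a whole was near the background. The 3 genes of the SF3A complex encode subunits that work together, and SF3A1 was the one of them that was called. SF3A1 (chromosome 22, 30331988 to 30356894, minus strand) fell from 24.0 and 27.9 FPKM to 17.4 and 15.4 FPKM, a log2 fold change of -0.63 (SE 0.10, adjusted p = 0.000572 by limma with Benjamini-Hochberg adjustment). SF3A2 and SF3A3 had 95% confidence intervals of -0.14 to 0.20 and -0.26 to 0.08, both short of the fall in SF3A1. There were 1.90 and 1.81 SF3A3 per SF3A1 in the controls and 2.60 and 2.90 upon knockdown, a pair chosen after its values were seen.

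In the SF3B complex SF3B2 and SF3B3 fell and SF3B4 rose. SF3B3, a scaffold subunit, had 21.2 and 23.2 FPKM with sh-NC and 15.7 and 16.1 FPKM with sh-CEBPG#3, a log2 fold change of -0.46 (SE 0.08, adjusted p = 0.00143 by limma with Benjamini-Hochberg adjustment). SF3B2, the partner of SF3B4 in the complex, went from 60.6 and 67.3 FPKM to 51.9 and 50.3 FPKM (-0.32, SE 0.08), and this call was lost without sh-CEBPG#3 replicate 2 (-0.29). SF3B4 (chromosome 1, 149923317 to 149927803, minus strand), which binds RNA next to the branch point, rose from 46.8 and 52.9 FPKM to 64.2 and 62.5 FPKM.

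The log2 fold change of SF3B4 was 0.34 (SE 0.08, adjusted p = 0.0066 by limma with Benjamini-Hochberg adjustment), and its call was lost without sh-CEBPG#3 replicate 1 (0.32). The ratio of SF3B4 to SF3B3, chosen after its values were seen, went from 2.21 and 2.28 to 4.10 and 3.90. SF3B1, the large subunit that clamps the branch point, had 95.6 and 103 FPKM against 97.4 and 92.8 FPKM, which overlap, with an interval of -0.23 to 0.10. The small subunits SF3B5, the most abundant of the class at 107 and 118 FPKM against 127 and 118 FPKM, and SF3B6 had intervals of -0.05 to 0.30 and -0.07 to 0.26.

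The U2AF heterodimer was also uneven. U2AF2, the large subunit that reads the polypyrimidine tract, went from 78.3 and 85.2 FPKM to 66.1 and 69.2 FPKM (log2 fold change -0.27, SE 0.07, adjusted p = 0.0153 by limma with Benjamini-Hochberg adjustment). The call was lost without sh-CEBPG#3 replicate 1 (-0.24), without sh-CEBPG#3 replicate 2 (-0.30) and on its most abundant row alone (-0.46). In the class as a whole fewer genes fell without sh-CEBPG#3 replicate 2, as did fewer of all genes tested. U2AF1, the small subunit, had values that overlapped between the groups and an interval of -0.22 to 0.15. A duplicated copy of U2AF1 exists in some genome assemblies, and how reads were shared with it is not known. The ratio of U2AF1 to U2AF2, chosen after its values were seen, was 0.537 and 0.533 in the controls and 0.678 and 0.586 upon knockdown.

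Promoter windows of these genes were searched for letters that CCAAT-binding and C/EBP proteins are known to read. CCAAT boxes are bound by NF-Y, while C/EBP proteins, in spite of their name, favour palindromes whose arms read TTGC. RefSeq windows on GRCh38.p14 that reach 250 bases upstream of each start matched 42 of the 45 genes (HNRNPA1, SF3B3 and SRSF2 did not match), and the bases before the start were searched on both strands. CCAAT was found in 20 of the 42 genes, against 37.0% of all 27305 genes with a window. It stood before 10 of the 20 genes that fell, 1 of the 2 that rose and 9 of the 20 not called. TTGCNNAA, 1 arm of a C/EBP site followed by 2 free bases and AA, was found in 1 of the 42 genes, HNRNPA2B1, against 11.0% of all genes. TGATGNAAT, the composite that C/EBP proteins share with ATF4, was found in none of the 42 and in 1.09% of all genes. A match is a run of letters, not a bound site. The following stretches show CCAAT in the 3 hnRNP genes with the largest called falls, in SRSF3, the one SR protein gene that fell with a match, and in HNRNPH2, which rose. Each is read 5′ to 3′ on the gene's strand and centred on 1 match, CCAAT or, where it lies on the other strand, ATTGG, which is in capitals. The SRSF3 stretch opens with a further match that is left in lower case. In the HNRNPUL1 stretch the letters tgg after the capitals complete an ATTGG that overlaps the marked match.
HNRNPA3, chr2:177212661-177212695, plus strand: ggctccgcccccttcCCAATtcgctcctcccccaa
HNRNPA2B1, chr7:26200828-26200862, minus strand: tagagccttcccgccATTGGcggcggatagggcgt
HNRNPUL1, chr19:41264294-41264328, plus strand: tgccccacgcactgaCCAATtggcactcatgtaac
SRSF3, chr6:36594292-36594326, plus strand: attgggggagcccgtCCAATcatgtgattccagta
HNRNPH2, chrX:101408066-101408100, plus strand: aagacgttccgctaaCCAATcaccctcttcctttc
The match to TTGCNNAA in HNRNPA2B1 lies on the other strand, 212 bases before the start, and is in capitals here.
HNRNPA2B1, chr7:26200936-26200973, minus strand: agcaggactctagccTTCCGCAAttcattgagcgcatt

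RefSeq rows were also tested one by one. Of the 106 rows 99 were tested, and 7 were called, all lower, where 8.24% of the 18624 rows tested were called. This share of rows called was no higher than the background. They were rows of HNRNPA2B1, HNRNPA3, HNRNPR, SF3B3 and SRSF2 and 2 rows of HNRNPUL1. In HNRNPR the row NM_001102397 fell from 16.9 and 20.1 FPKM to 9.29 and 9.13 FPKM (log2 fold change -0.93, SE 0.11), a larger fall than that of the gene. The row NM_005826 of the same gene had 5.24 and 5.69 FPKM with sh-NC and 10.0 and 8.38 FPKM with sh-CEBPG#3, opposite in direction and not called (95% confidence interval 0.31 to 1.00, adjusted p = 0.0585 by limma with Benjamini-Hochberg adjustment). In HNRNPUL1 the main row NM_007040 fell from 82.9 and 88.7 FPKM to 56.8 and 56.8 FPKM, and the minor row NM_001301016 went from 2.50 and 2.48 FPKM to 0 and 0.441 FPKM. No row was called once any 1 library was left out, so these row calls rest on all 4 libraries.

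Shares within a gene take out the change of the gene as a whole. The share of NM_001102397 in all HNRNPR FPKM was 67.8% and 70.9% with sh-NC and 45.2% and 46.1% with sh-CEBPG#3, and that of NM_005826 was 21.0% and 20.05% against 48.8% and 42.3%. The groups did not overlap in either, and neither passed the adjustment over all rows (unadjusted p = 0.0208 and 0.0170, adjusted p = 0.485 and 0.474 by limma with Benjamini-Hochberg adjustment). Of the 31 genes with 2 or more rows, none had a row share that was called by limma, where 0.0537% of the 5582 genes tested had one. On simulated data this fit recovered 6% of log2 changes of 1, so it would miss most shifts of that size. At an unadjusted p under 0.05 there were 4 of the 31, and 884 of all 5582. The other 3 were HNRNPUL1, HNRNPA1L2 and U2AF1L4. The share of NM_144987, a coding row of U2AF1L4, was 0% and 0.884% with sh-NC and 7.05% and 7.56% with sh-CEBPG#3.

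Non-coding isoforms, RefSeq rows that begin with NR_, were compared with the coding rows, which begin with NM_. In SR protein genes such isoforms can hold poison exons, whose inclusion brings a stop codon and decay of the mRNA. The 8 genes with both kinds of row were HNRNPDL, SRSF1, SRSF2, SRSF3, SRSF6, SRSF8, SRSF10 and U2AF1L4. None had a ratio of NR_ to NM_ FPKM that was called by limma with Benjamini-Hochberg adjustment, where 0% of all 1012 genes tested were called. At an unadjusted p under 0.05 there was 1 of the 8, U2AF1L4, and 83 of the 1012. Standard errors of the log2 ratio ran from 0.42 to 0.65 over the 8 genes. On simulated data the ratio fit recovered 9% of log2 changes of 1, so the lack of calls leaves shifts of that size open.

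In HNRNPDL, a relative of HNRNPD, the NR_ row made up 16.0% and 13.3% of the gene's FPKM with sh-NC and 26.1% and 21.0% with sh-CEBPG#3, with no overlap. In SRSF1 the NR_ share was 12.2% and 14.1% against 15.2% and 20.2%, and in SRSF6 it was 7.38% and 9.06% against 13.6% and 10.4%. For SRSF3 (12.9% and 21.8% against 29.3% and 14.7%), SRSF10 and SRSF2 the groups overlapped. For SRSF8 they did not, at 24.3% and 15.01% against 26.9% and 31.7%. The coding rows of HNRNPDL summed to 60.3 and 66.2 FPKM with sh-NC and to 49.1 and 49.9 FPKM with sh-CEBPG#3. NM_ rows of SRSF1 summed to 56.0 and 59.3 FPKM with sh-NC and to 41.3 and 38.5 FPKM with sh-CEBPG#3, whereas its NR_ row had 7.80 and 9.77 FPKM against 7.41 and 9.73 FPKM. With coding rows alone, HNRNPDL, SRSF6 and SRSF8 were called lower as well, in a fit where 46.8% of all genes were called against 42.2% with all rows.

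U2AF1L4, a relative of U2AF1, was mostly non-coding in these cells. NR_ rows made up 98.5% and 96.2% of its FPKM with sh-NC and 89.5% and 89.4% with sh-CEBPG#3 (unadjusted p = 0.0251, adjusted p = 0.528 by limma with Benjamini-Hochberg adjustment). Its coding rows rose from 0.216 and 0.612 FPKM to 1.45 and 1.64 FPKM while the sum over all rows overlapped between the groups. With coding rows alone the log2 fold change was 0.86 (adjusted p = 0.000204 by limma with Benjamini-Hochberg adjustment), against -0.07 for the sum.

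**Figure D3:**
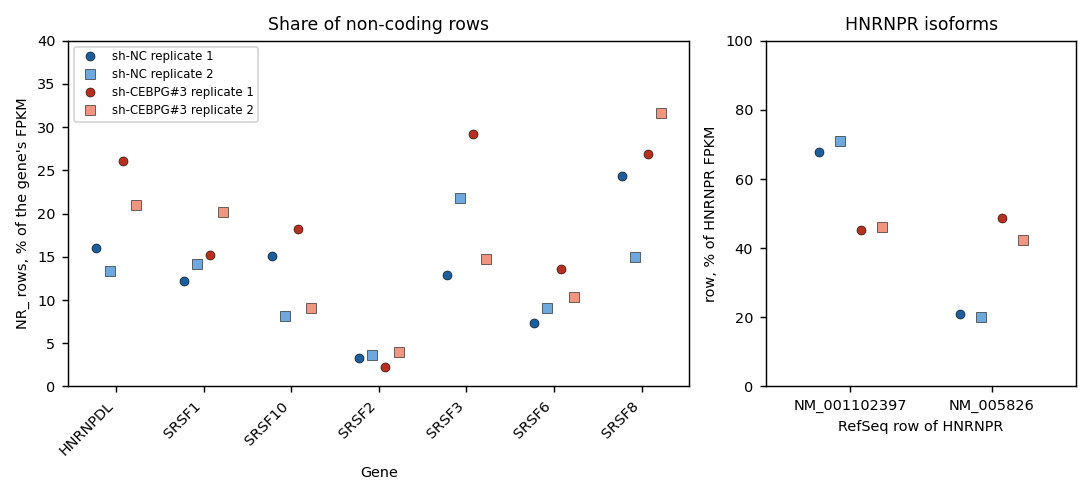
Left, share of a gene's FPKM in NR_ rows (percent) in each library for 7 of the 8 genes with both kinds of row, without U2AF1L4, which was above 89%. Right, shares of the HNRNPR rows NM_001102397 and NM_005826, where the sh-CEBPG#3 libraries (red) lie near 45% in both rows and the sh-NC libraries (blue) near 70% and 20%.

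Other parts of the splicing machinery were counted from lists. Of 36 proteins of the U1, U2, U4/U6 and U5 particles and the Sm ring, 18 fell, 1 rose and 17 were not called. Their median log2 fold change was -0.22, and 23.8% of all genes tested fell. DDX23, the U5 helicase that helps to activate the spliceosome, fell from 29.9 and 33.5 FPKM to 14.3 and 13.6 FPKM, which is larger than any fall in the SR, hnRNP, SF3 and U2AF genes (log2 fold change -1.13, SE 0.08, adjusted p = 6.49e-06 by limma with Benjamini-Hochberg adjustment). The Sm protein SNRPD1 and the U5 protein TXNL4A fell by 0.62 and 0.57 on the log2 scale, and SNRPC of the U1 particle rose by 0.26. Among the 2 most abundant, LSM7 fell (-0.34) and SNRPB was not called (-0.15). Without sh-CEBPG#3 replicate 2 fewer genes of this list fell, a share nearer to that of all genes tested in that fit. The SNRPC call was lost without sh-NC replicate 1 and without either sh-CEBPG#3 library (0.18 to 0.28). The LSM7 call was lost without sh-CEBPG#3 replicate 2 (-0.23).

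Of 16 further U2 and branch point factors 8 fell, 1 rose and 7 were not called, with a median of -0.22, where 23.8% of all genes fell. The helicase DDX46 had 23.4 and 24.2 FPKM with sh-NC and 17.4 and 16.4 FPKM with sh-CEBPG#3 (log2 fold change -0.47), and RBM10 and RBM17, which act at the 3′ splice site, fell by 0.39 and 0.37. On their most abundant row alone DDX46 and RBM10 stood at 0.027 and 0.077. SF1, which binds the branch point before the U2 particle does, fell by 0.30, a call lost without either sh-CEBPG#3 library (-0.33 and -0.27), and DNAJC8 was not called (-0.08). PUF60, a relative of U2AF2, was called higher on 9.24 and 30.4 FPKM against 35.2 and 35.5 FPKM. Without sh-NC replicate 1 its log2 fold change went from 1.02 to 0.21 and was not called. Without sh-CEBPG#3 replicate 1 or without sh-CEBPG#3 replicate 2 fewer genes of this list fell, a share near that of all genes tested in the same fits.

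SR proteins are phosphorylated by the SRPK and CLK kinases and carried by importins. Of 30 such kinases, importins and SR-related cofactors, 8 fell, 2 rose and 20 were not called, with a median of -0.14. This share of falls is near the 23.8% of all genes. CLK2 fell from 14.3 and 13.5 FPKM to 8.92 and 9.73 FPKM (log2 fold change -0.53, and -1.90 without a call on its most abundant row), and PPIG and TRA2B fell by 0.40 and 0.37. TRA2A, the paralogue of TRA2B, rose by 0.26, a call lost without sh-NC replicate 2 (0.22) and without sh-CEBPG#3 replicate 1 (0.18), and SRPK3 rose by 0.43. The most abundant, RBM39 and SRRM2, had log2 fold changes of 0.01 and -0.05 and were not called. With every library scaled to the same total, 13 of the 30 fell, where 28.9% of all genes fell. Without sh-CEBPG#3 replicate 2 fewer of the 30 fell, as did fewer of all genes tested.

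Of 32 other regulators of alternative splicing 14 fell, 3 rose and 15 were not called. Their median was -0.22, where 23.8% of all genes fell. ILF2 fell from 130 and 137 FPKM to 73.0 and 70.8 FPKM (log2 fold change -0.88, SE 0.07), MBNL1, the muscleblind regulator, from 53.0 and 53.4 FPKM to 33.2 and 29.5 FPKM, and TAF15 by 0.64 on the log2 scale. The C-rich binder PCBP1 fell by 0.60 and the polypyrimidine tract binder PTBP1 was not called (-0.19). QKI rose from 10.8 and 11.4 FPKM to 14.3 and 14.3 FPKM, and CELF1 and PTBP3 rose by 0.36 and 0.23. On their most abundant rows alone QKI and PTBP3 stood at -0.070 and -0.14 and were not called. CELF1 was not called without sh-NC replicate 2 (0.21) or without sh-CEBPG#3 replicate 2 (0.21), nor PTBP3 without any of the 4 libraries (0.16 to 0.29). Fewer genes of this list fell without sh-CEBPG#3 replicate 2, a share nearer to that of all genes tested in that fit.

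Of 24 proteins of the catalytic steps and the exon junction complex 6 fell and 18 were not called, with a median of -0.14, a share of falls near the 23.8% of all genes. PRPF18, MAGOHB and DHX8 fell by 0.54, 0.45 and 0.43 on the log2 scale, and the abundant PRPF19 and EIF4A3 were not called (-0.07 and -0.05). With every library scaled to the same total 13 of the 24 fell, where 28.9% of all genes fell. Of 12 factors of nonsense-mediated decay, which removes poison exon isoforms, 3 fell, 1 rose and 8 were not called, with a median of -0.06, and this share of falls is also near that of all genes. UPF3A and UPF2 fell by 0.47 and 0.45, SMG6 fell by 0.35, SMG9 rose by 0.28, and SMG5 and UPF1, the most abundant, stood at -0.03 and -0.01. SMG6 was not called without sh-NC replicate 1 (-0.36), without sh-NC replicate 2 (-0.33) or without sh-CEBPG#3 replicate 2 (-0.33), nor was SMG9 without sh-NC replicate 2 (0.26) or without sh-CEBPG#3 replicate 1 (0.19). With genes represented by their most abundant rows, the 6 lists had 10, 4, 2, 6, 2 and 0 falls in the order given here. In that fit 12.8% of all genes fell.

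**Figure D4:**
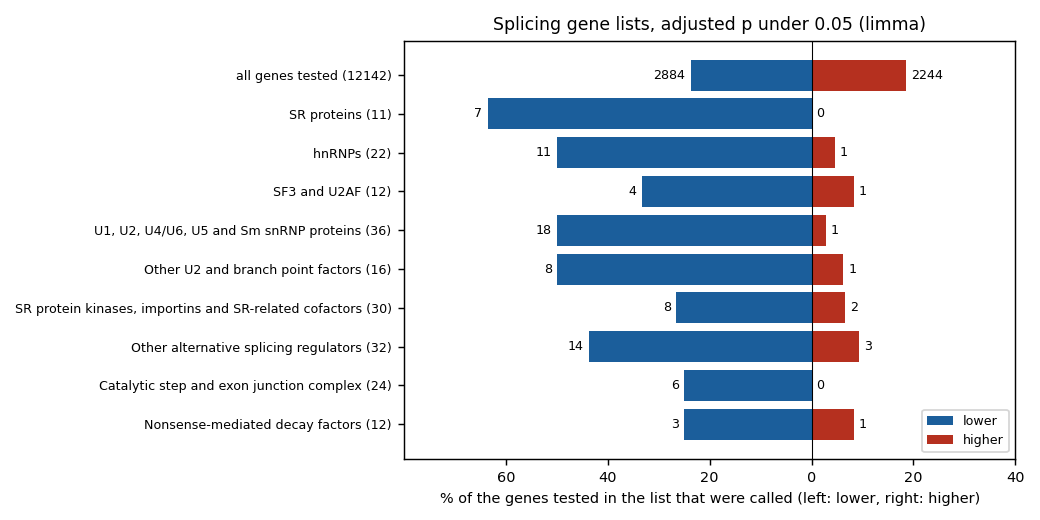
Percent of the genes tested in each list that fell (left of 0) or rose (right of 0) at an adjusted p under 0.05, with the number of genes at the end of each bar and the number tested in brackets. SR proteins (7 of 11) and hnRNPs (11 of 22) lie beside snRNP proteins (18 of 36), and all genes tested had 2884 falls and 2244 rises.

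Other programmes moved in the same libraries. Of 20 proliferation genes 18 fell, with a median log2 fold change of -0.73 and sums of 951 and 1031 FPKM against 609 and 576 FPKM. The replication helicase subunits MCM6, MCM4 and MCM3 fell by 1.15, 1.04 and 1.00, and PCNA and TYMS by 0.61 and 0.54. All 26 interferon-stimulated genes tested rose, with a median of 2.73 and sums of 137 and 149 FPKM against 1292 and 1243 FPKM, among them IFI6 (1.99 and 2.07 FPKM against 271 and 264 FPKM), OAS2, OAS1 and BST2. Of the AML markers TYROBP, ITGB2 and LAPTM5 rose by 1.05, 0.88 and 0.32 with LYZ, while MEIS1 and HOXA9 fell by 0.87 and 0.36. The LAPTM5 call was lost without either sh-CEBPG#3 library (0.29 and 0.36) and the HOXA9 call without sh-CEBPG#3 replicate 2 (-0.23). The part of these programmes in the splicing factor levels was not tested.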

How the data were processed

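The RNA-seq values of 2 sh-NC and 2 sh-CEBPG#3 libraries of MV4-11 cells were used. The authors extracted RNA with Trizol, made TruSeq libraries, mapped the reads and deposited FPKM values for each RefSeq row and library. HISAT2 2.0.5 and hg38 are named in the submitters' processing notes. The annotation release, the strand setting and the tool behind the FPKM values are not given in the sources used here. No count test was run.

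Of 28780 rows 199 held no value. Rows were summed by symbol to 16490 genes, among which 164 rows without a symbol stand alone. Gene sums and rows averaging 0.5 FPKM or more were tested as log2(FPKM + 1) with limma 3.58.1 in R 4.3.3 (lmFit and eBayes with a trend, group only), with Benjamini-Hochberg adjustment over all features tested. Ratios of NR_ to NM_ rows and row shares were tested as log2 ratios with 0.1 FPKM added, in genes averaging 1 FPKM or more. No depth or interval from counting can be given. Each fit was tested on simulated data before use. Of simulated log2 changes of 1, the fits of gene sums and rows recovered 100% and 87%. The fits of ratios and row shares recovered 9% and 6% of changes of that size.

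The members, lists and tests were chosen with earlier results of these data known. Values in every library are given for up to 5 called members a class and direction, the 3 most abundant of each class and the members with the smallest p in the isoform tests, and from each list the 3 largest rises and falls called and the 2 most abundant genes. The background of 20 FPKM was chosen after the data were seen. Alternatives were pseudocounts of 0.1 and 0.01, no filter or one at 1 FPKM, equal totals, quantile normalization, NM_ rows only, the most abundant row, the replicate number as a block, and each library left out in turn. Promoter windows were read with Python 3.11.15.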

Additional observations from a re-analysis of the deposited data

How the results depend on the processing

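Of the 24 genes called, 13 were called under every alternative that kept all libraries and 9 also with each library left out: HNRNPA2B1, HNRNPA3, HNRNPR, HNRNPUL1, SF3A1, SF3B3, SRSF1, SRSF2 and SRSF3. The most abundant row in place of the gene sum gave 15 calls, 1 higher and 14 lower, where 23.9% of all genes were called and 12.8% fell. With each library left out once there were 12 to 30 calls, 0 to 3 higher and 11 to 28 lower, and a median log2 fold change of -0.27 to -0.19, where the lone library of a group is assumed to vary like the pair of the other. Deviations of same-numbered libraries correlated at 0.061 across genes, so little variation was shared by number. Whether these libraries shared an infection or a culture is not stated in the sources used here. With the replicate number as a block there were 19 calls, 17 lower and 2 higher, where 39.2% of all genes tested were called and 22.0% fell.

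Calls on rows, 7 in all, were the least stable. They numbered 21 with equal totals and 21 with quantile normalization, 13 with a mean of at least 1 FPKM, 3 with no filter, 4 and 4 with pseudocounts of 0.1 and 0.01, 0 with the replicate block and 0 to 0 with each library left out. Ratios and shares gave 0 calls under every alternative as well, which says nothing about their stability, since none of the 1012 ratios of all genes was called. Shares of all rows called under these alternatives are not given here, and the cause of these differences was not tested.

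Some log2 fold changes turned. Without a library these were SF3A2 (-0.050 to 0.10), U2AF1L4 (-0.15 to 0.0055), HNRNPAB (-0.038 to 0.025), SRSF5 (-0.095 to 0.031), HNRNPLL (-0.081 to 0.17), HNRNPA1 (-0.11 to 0.074) and U2AF1 (-0.11 to 0.036), all near 0 and not called. On the most abundant row HNRNPF stood at 0.10, SRSF5 at 0.080 and HNRNPAB at 0.0083, against -0.30 for HNRNPF by the sum. SF3A2 was at -0.00024 with equal totals and U2AF1L4 at 0.86 with NM_ rows only. Of the genes named from lists, the most abundant row turned DDX46 (0.027), RBM10 (0.077), PTBP3 (-0.14), QKI (-0.070), UPF1 (0.015) and RBM39 (-0.044). RBM39 was also at -0.046 with quantile normalization, -0.021 with equal totals and -0.32 with NM_ rows only. Without a library RBM39 (-0.047 to 0.058), DNAJC8 (-0.18 to 0.024), EIF4A3 (-0.14 to 0.035), PRPF19 (-0.15 to 0.0096), SMG5 (-0.069 to 0.012) and UPF1 (-0.040 to 0.017) turned. For the 45 genes and CEBPG, 503 other values kept their direction and call, 48 lost the call, 31 gained one and 15 turned.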
